A study of Homo sapiens with 9 samples.

Results

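The interleukin 6 (IL-6) family genes IL6, IL11, LIF, CLCF1, IL6R, IL6ST, LIFR, OSMR, STAT3 and SOCS3 were followed in MDA-MB231 cells, an established human breast cancer line. These 10 genes were chosen by name, with earlier results of these data known. Every probe set that the platform annotation gave to 1 of them was read. The annotation listed 9 of the 10 genes, with 35 probe sets, among 18132 genes in all, and CLCF1 was not analysed here. Each gene took the value of its brightest probe set by the mean of all 9 arrays. RNA was measured on 9 Affymetrix PrimeView arrays, 1 per culture. Of these, 3 cultures received 3 µM PD325901, an inhibitor of MEK, the kinase upstream of ERK. A further 2 cultures received 10 µM BB94, which is batimastat, a broad inhibitor of metalloproteinases. The other 4 cultures received 0.1% DMSO and served as control. All cells grew in medium with fetal bovine serum and were lysed 24 h after the change to fresh medium, so serum and vehicle were common to the groups. Both inhibitors were added from stock in DMSO, and the final DMSO share in those cultures is not given in the sources used.

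Cytokines of the IL-6 family bind a receptor complex that contains gp130, the product of IL6ST. IL-6 and IL-11 reach gp130 through the alpha receptors IL6R and IL11RA, while LIF, oncostatin M and cardiotrophin-like cytokine engage gp130 together with LIFR or OSMR. The complex activates JAK kinases, which phosphorylate STAT3, and STAT3 induces SOCS3, a feedback inhibitor that binds gp130. The alpha receptor IL6R can be cleaved from the cell surface by ADAM10 and ADAM17, metalloproteinases of the kind that BB94 inhibits. In breast cancer cells, IL-6, IL-11 and LIF are known as autocrine and paracrine signals, and IL-11 is known for its part in bone metastasis.

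Values are log2 intensities, and each difference between groups was tested with limma, with p-values adjusted by the Benjamini-Hochberg method over all 18132 genes. An adjusted p below 0.05 counted as a call, and every adjusted p below comes from this fit. Array medians lay between 6.05 and 6.34. The background level of an array was the highest of its 23 background control probe sets and lay between 6.02 and 6.50. All 6 markers of the line (VIM, CD44, EGFR, CAV1, AXL and SPARC) were above this level on all 9 arrays. Of 5 genes expected to be low in it, ESR1, PGR and CDH1 were below background on all 9 arrays, while EPCAM and KRT8 were above it. Of 5 leukocyte markers 4 were measured, and all 4 were below background on every array. Their summed level was 7.08 to 7.36 on the log2 scale in PD325901, 6.29 to 6.40 in BB94 and 6.30 to 6.46 in control. Of these markers, ITGAM averaged 6.13 in PD325901, 3.77 in BB94 and 3.88 in control. PTPRC, CD3E and CD14 averaged 3.45, 3.55 and 5.77 in PD325901, against 3.36, 3.34 and 5.61 in control. The difference between 3' and 5' probe sets of ACTB, which grows as RNA degrades, was 3.50 to 4.15 in PD325901, 3.91 to 4.22 in BB94 and 2.96 to 3.89 in control, and its part in the results was not tested. In RNA from whole cultures, fewer cells expressing a gene and less RNA per cell cannot be told apart.

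With PD325901, IL11 and LIF fell, and IL6R, LIFR and STAT3 rose. IL6, IL6ST, OSMR and SOCS3 were not called against control. With BB94, none of the 9 genes was called. These counts stand against backgrounds that differ greatly between the inhibitors. The family genes were chosen with earlier results of these data known, so their share of calls is no independent result. In PD325901 against control, 35.1% of all genes were called (6365 of 18132), 22.8% higher and 12.3% lower, and among the 9 genes 5 were called, 3 higher and 2 lower. The 18132 genes include dim ones, while all 9 family genes were above background in control. Among the 10655 genes whose mean over the arrays was above background, 5716 were called, 3459 higher and 2257 lower. Under that filter 6 of the 9 family genes were called, 4 higher and 2 lower. In BB94 against control, 1.58% of all genes were called (286 of 18132), 0.491% higher and 1.09% lower, and 0 of the 9 genes, with 1 of them, IL11, at an unadjusted p under 0.05. Without BB94 replicate 1 the count over all genes was 116, and without replicate 2 it was 62. In PD325901 against BB94, 31.2% of all genes were called (5652 of 18132), 21% higher and 10.2% lower, and among the 9 genes 6 were called, 4 higher and 2 lower. Both inhibitors were compared with the same 4 control arrays. The median log2 change of the 9 genes was 0.16 in PD325901 against control, beside 0.083 over all genes, and -0.060 in BB94 against control, beside -0.024 over all genes. The split of calls in PD325901 against control depended on scaling: with each array centred on its median over genes, 2353 genes were higher and 5076 lower, and the median over all genes moved to -0.17.

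**Figure D1:**
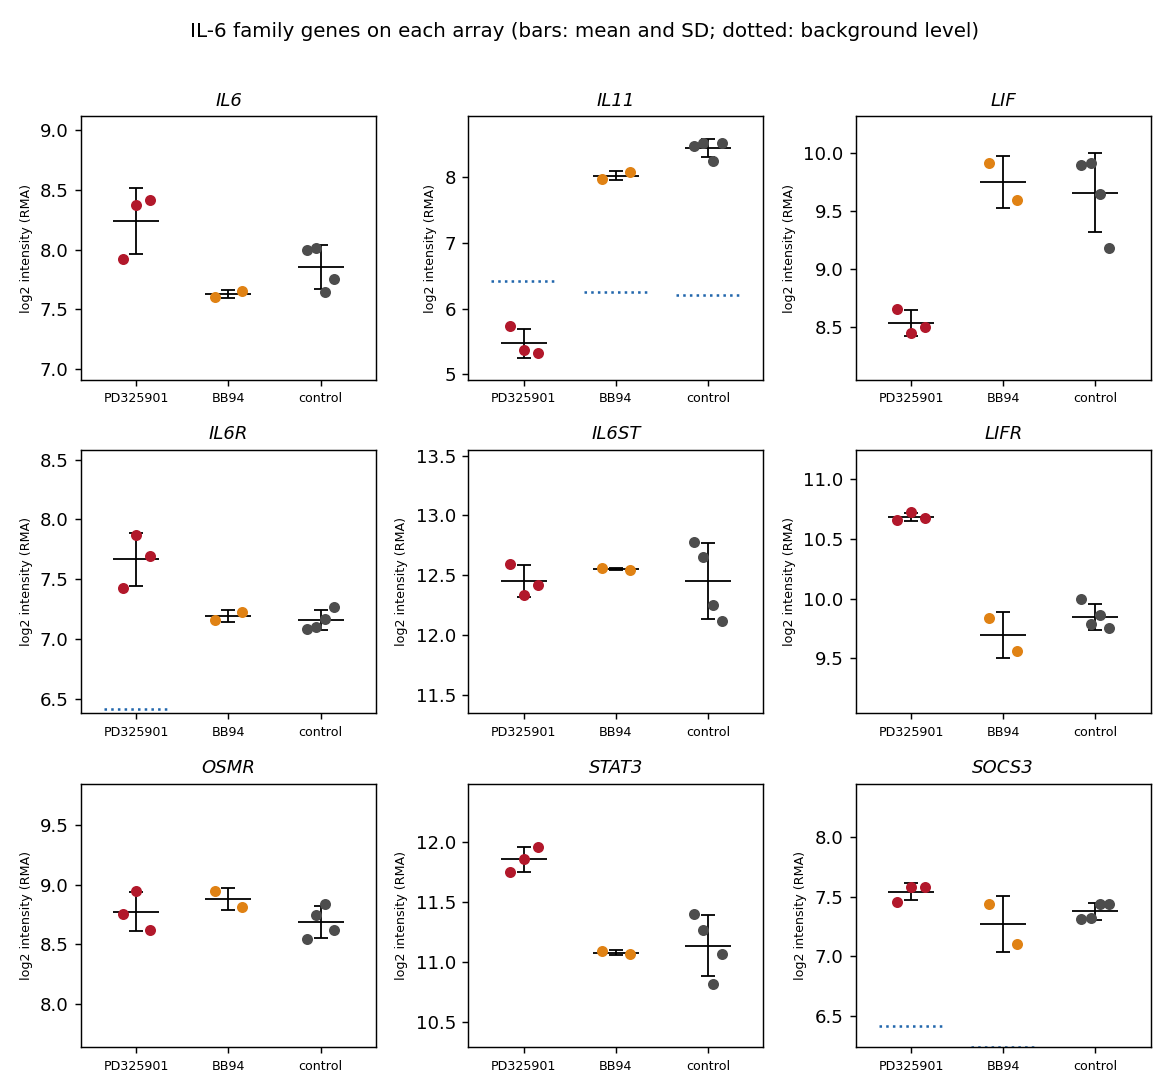
Log2 intensity (vertical axis) of the 9 measured IL-6 family genes on each array, in PD325901 (3 arrays), BB94 (2 arrays) and control (4 arrays). Points are arrays, bars are the mean and SD, and dotted lines are the group's mean background level where it falls inside the panel; IL11 in PD325901 is the only group that lies below it.

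**Figure D2:**
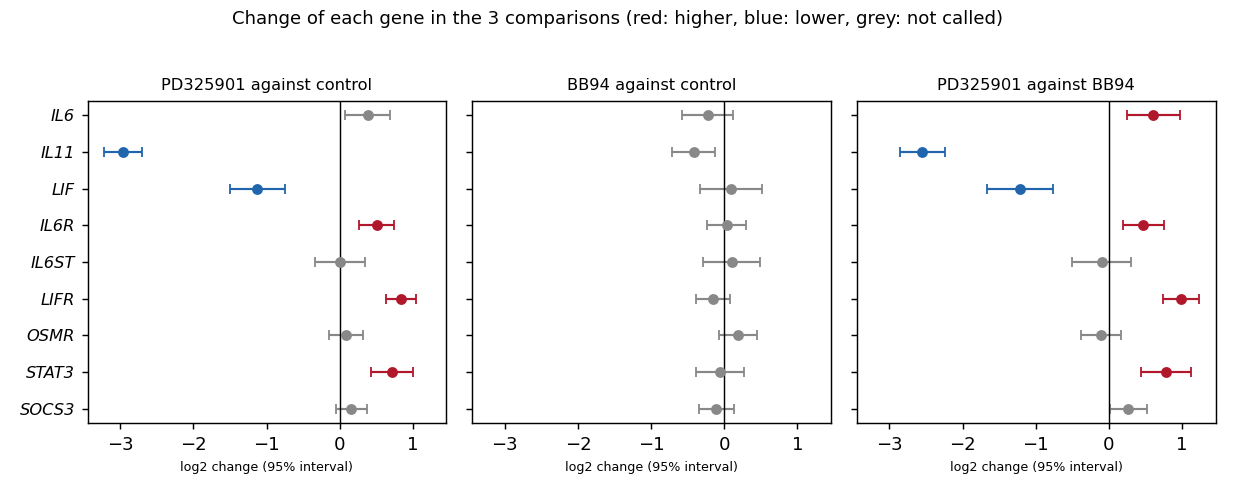
Log2 change of each gene (horizontal axis) with its 95% interval from limma, in PD325901 against control, BB94 against control and PD325901 against BB94. Red points were called higher, blue points lower and grey points were not called; in BB94 against control all 9 points are grey.

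Among the ligands, IL11, a cytokine of bone and stromal tissue, showed the widest difference. Its intensity was 5.73, 5.37 and 5.32 on the PD325901 arrays, 7.97 and 8.07 on the BB94 arrays, and 8.47, 8.52, 8.24 and 8.52 on the control arrays. The 3 PD325901 arrays were all below background and the other 6 were all above it, so only a bound can be given for the fold. IL11 was at least 4.05-fold lower in PD325901 than in control (fitted log2 change -2.97, SE 0.12, adjusted p = 3.71e-08), and at least 3.04-fold lower than in BB94 (fitted log2 change -2.55, SE 0.14, adjusted p = 4.62e-07). With the 95th percentile of the background probe sets as the background level, these bounds were 4.49 and 3.37. By p-value IL11 ranked 61 among the 18132 genes in PD325901 against control. Both BB94 arrays lay below all 4 control arrays, with a log2 change of -0.42 (95% interval -0.71 to -0.12), which was not called (adjusted p = 0.222). The remaining probe sets of IL11, 11751797_a_at and 11727691_a_at, were below background on all 9 arrays, with log2 changes of -0.42 (called) and -0.28 (not called) in PD325901 against control. With the mean of the 3 probe sets the change of IL11 was -1.22, and it was called.

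The window of 250 bases upstream of the RefSeq start of IL11 is shown because IL11 had the widest change and MEK and ERK signalling is known to act on AP-1 factors. It lies at chr19:55370464-55370713 on the minus strand of GRCh38.p14, and capitals mark the match to the AP-1 motif TGANTCA, which ends 89 bases before the start.
IL11: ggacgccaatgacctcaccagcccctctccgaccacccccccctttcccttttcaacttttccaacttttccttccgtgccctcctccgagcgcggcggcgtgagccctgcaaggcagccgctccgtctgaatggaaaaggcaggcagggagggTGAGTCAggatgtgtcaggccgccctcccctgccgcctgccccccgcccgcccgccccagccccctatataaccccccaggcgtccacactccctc
The motif was searched on both strands, and 6.57% of 35116 RefSeq promoter windows of the same length hold it. Among the 11 windows of the 8 genes with an entry, IL11 alone held this motif. LIF and CLCF1 had no entry, so their windows were not searched. Such a match describes letters in a window and is no evidence of binding.

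LIF, named for inhibiting leukaemia cells and known for keeping stem cells undifferentiated, had intensities of 8.66, 8.45 and 8.50 in PD325901, 9.91 and 9.60 in BB94, and 9.90, 9.92, 9.65 and 9.18 in control. Every PD325901 array was below every BB94 and control array. LIF fell to 8.54 ± 0.11 in PD325901 (SD, n = 3), against 9.66 ± 0.34 in control (SD, n = 4), which is 2.18-fold lower (log2 change -1.13, SE 0.17, adjusted p = 0.000379). It was 2.33-fold lower than in BB94 (log2 change -1.22, adjusted p = 0.000899). A further probe set of LIF above background, 11726498_at, gave the same log2 change of -1.13 in PD325901 against control, and the third, 11726497_at, was below background on all arrays and was not called (0.14). Under BB94 the change of LIF against control was 0.093 (95% interval -0.33 to 0.52, adjusted p = 0.949), and the BB94 values lay within the control range. Control replicate 4, the lowest control array for LIF, was also the array with the smallest 3' to 5' difference of ACTB, at 2.96, and its part in the result was not tested.

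IL6, the cytokine that gives the family its name and that NF-κB and other inflammatory factors induce, read 7.92, 8.38 and 8.42 in PD325901, 7.61 and 7.65 in BB94, and 8.00, 8.02, 7.65 and 7.75 in control. PD325901 replicate 1 lay inside the control range, and replicates 2 and 3 lay above it. The log2 change of IL6 in PD325901 against control was 0.38 (SE 0.14, 95% interval 0.079 to 0.69), just outside the threshold (adjusted p = 0.0527). This value crossed the threshold in 7 of 20 alternative settings and ranged from an adjusted p of 0.00758 to 0.511; without PD325901 replicate 1 it was 0.54 and was called (adjusted p = 0.00808), as it was without control replicate 1 (0.0333) or 2 (0.0473). Against BB94, IL6 was 1.52-fold higher in PD325901, at 8.24 ± 0.28 (SD, n = 3) against 7.63 ± 0.03 (SD, n = 2), with no overlap between the arrays (log2 change 0.61, SE 0.16, adjusted p = 0.0162). That call was lost in 7 of 20 alternative settings, among them leaving out BB94 replicate 1 (adjusted p = 0.0923), BB94 replicate 2 (0.0785), PD325901 replicate 2 (0.0593) or PD325901 replicate 3 (0.0596). IL6 in BB94 differed from control by -0.22 and was not called (adjusted p = 0.723). Its second probe set, 11760425_a_at, was called higher in PD325901 against control (0.77, adjusted p = 0.00759 over all probe sets) while it stayed below background on all 9 arrays. IL6, LIF and IL11 thus gave values in PD325901 that did not run one way, with IL11 and LIF lower and IL6 at or above its control level.

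The IL6 window is shown beside that of IL11 because both genes encode secreted ligands and their values in PD325901 differed in sign. It lies at chr7:22726950-22727199 on the plus strand of GRCh38.p14, and capitals mark the match to the NF-κB motif, 63 bases before the start.
IL6: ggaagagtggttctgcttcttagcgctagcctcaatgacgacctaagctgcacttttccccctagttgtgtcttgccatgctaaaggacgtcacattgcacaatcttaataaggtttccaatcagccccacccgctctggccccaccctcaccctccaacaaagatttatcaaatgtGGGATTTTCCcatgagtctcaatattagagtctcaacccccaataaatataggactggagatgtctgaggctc
Windows with a match to this NF-κB motif, searched on both strands, made up 9.96% of the 35116 RefSeq windows, and the IL6ST window held one too.

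Among the receptors, LIFR, the signalling chain for LIF that pairs with gp130, was higher on every PD325901 array. LIFR read 10.66, 10.72 and 10.67 in PD325901, 9.83 and 9.56 in BB94, and 10.00, 9.78, 9.86 and 9.75 in control. The 3 PD325901 values lay close together and above all 6 others. LIFR rose to 10.68 ± 0.03 in PD325901 (SD, n = 3), against 9.85 ± 0.11 in control (SD, n = 4), which is 1.78-fold higher (log2 change 0.84, SE 0.09, adjusted p = 4.74e-05). It was 1.98-fold higher than in BB94 (log2 change 0.99, adjusted p = 6.81e-05). All 5 probe sets of LIFR were called higher in PD325901 against control, with log2 changes from 0.38 to 1.16, and 3 of 5 were called higher against BB94. LIFR in BB94 differed from control by -0.15 (95% interval -0.39 to 0.083, adjusted p = 0.723). The ligand LIF and its receptor LIFR therefore moved in opposite directions in PD325901 against control.

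RefSeq lists 3 starts for LIFR, and the window of the farthest upstream start is shown because it holds a match to the STAT motif TTCNNNGAA, the element that STAT3 is known to bind. It lies at chr5:38595406-38595655 on the minus strand of GRCh38.p14, and capitals mark the match, 156 bases before the start.
LIFR: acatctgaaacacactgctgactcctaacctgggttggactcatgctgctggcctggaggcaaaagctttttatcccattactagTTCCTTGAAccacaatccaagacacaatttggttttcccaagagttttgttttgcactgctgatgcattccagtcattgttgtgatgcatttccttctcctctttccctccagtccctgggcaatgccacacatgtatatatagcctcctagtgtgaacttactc
The window of the second LIFR start held a match too, 173 bases before that start, and the third held none. Of the 35116 windows, 6.57% hold this motif. Which start the cells used was not measured.

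IL6R, the alpha receptor that gives cells direct sensitivity to IL-6, read 7.43, 7.87 and 7.69 in PD325901, 7.16 and 7.23 in BB94, and 7.09, 7.11, 7.17 and 7.27 in control. The PD325901 arrays were the highest and did not overlap with either group. IL6R was 1.42-fold higher in PD325901 than in control, at 7.67 ± 0.22 (SD, n = 3) against 7.16 ± 0.08 (SD, n = 4; log2 change 0.51, SE 0.11, adjusted p = 0.00346), and 1.39-fold higher than in BB94 (log2 change 0.47, adjusted p = 0.0161). With arrays centred on the median over genes, the call against control was lost (adjusted p = 0.128). The call against BB94 was lost in 7 of 20 alternative settings, among them leaving out BB94 replicate 1 (adjusted p = 0.102), BB94 replicate 2 (0.0671) or PD325901 replicate 2 (0.0589). The probe set behind these values, 11741959_x_at, carries a suffix that marks probes shared with other transcripts. The 3 remaining sets of IL6R were below background on all 9 arrays, with changes of 0.44 (called), 0.13 and -0.01 (not called) in PD325901 against control. IL6R in BB94 differed from control by 0.034 (95% interval -0.24 to 0.30, adjusted p = 0.975).

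IL6ST, which encodes the shared chain gp130, read 12.60, 12.34 and 12.42 in PD325901, 12.56 and 12.54 in BB94, and 12.78, 12.65, 12.25 and 12.12 in control. The control arrays spanned all other values, with replicates 3 and 4 the lowest of the 9 arrays. IL6ST averaged 12.45 ± 0.13 in PD325901 (SD, n = 3), 12.55 ± 0.01 in BB94 (SD, n = 2) and 12.45 ± 0.32 in control (SD, n = 4). The log2 change was 0.0016 in PD325901 (95% interval -0.34 to 0.34, adjusted p = 0.996) and 0.10 in BB94 (95% interval -0.29 to 0.49, adjusted p = 0.934). Of its 8 probe sets 7 were above background on all 9 arrays, and 0 were called in any of the 3 comparisons. The changes of the 8 sets ran from -0.37 to 0.12 in PD325901 against control and from -0.68 to 0.10 in BB94 against control. The sign of the IL6ST change was not settled, since it turned in several alternative settings.

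OSMR, the receptor chain for oncostatin M, read 8.75, 8.94 and 8.62 in PD325901, 8.94 and 8.81 in BB94, and 8.54, 8.75, 8.84 and 8.62 in control. The groups overlapped throughout. Its log2 change was 0.086 in PD325901 (95% interval -0.15 to 0.32, adjusted p = 0.596) and 0.19 in BB94 (95% interval -0.073 to 0.45, adjusted p = 0.66), and 0 of its 5 probe sets were called in any comparison. Centring on the median over genes turned its change in PD325901 against control to -0.17 and made OSMR lower in PD325901 than in BB94 (-0.43, adjusted p = 0.0197). Of the 4 receptor genes, LIFR and IL6R thus passed the test in PD325901 against control, and OSMR and IL6ST did not.

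STAT3, the transcription factor that the receptors activate, read 11.75, 11.86 and 11.96 in PD325901, 11.09 and 11.06 in BB94, and 11.40, 11.27, 10.82 and 11.07 in control. All PD325901 arrays lay above all others, and control replicate 3 was the lowest. STAT3 was 1.65-fold higher in PD325901 than in control, at 11.86 ± 0.11 (SD, n = 3) against 11.14 ± 0.25 (SD, n = 4; log2 change 0.72, SE 0.13, adjusted p = 0.00125), and 1.72-fold higher than in BB94 (log2 change 0.78, adjusted p = 0.00279). All 3 probe sets of STAT3 were above background on every array and were called higher in PD325901 against control, with changes from 0.56 to 0.78, and 2 of the 3 were called higher against BB94. The call against BB94 was lost with arrays centred on the median over genes (adjusted p = 0.0537). The STAT3 change in BB94 against control was -0.060 (95% interval -0.39 to 0.26, adjusted p = 0.957). These are transcript levels, and phosphorylation of STAT3 was not measured.

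The STAT3 window is shown because its level rose with a MEK inhibitor and ETS factors are known substrates of ERK. It lies at chr17:42388443-42388692 on the minus strand of GRCh38.p14, and capitals mark the match to the ETS motif CCGGAA, here read on the opposite strand, 44 bases before the start.
STAT3: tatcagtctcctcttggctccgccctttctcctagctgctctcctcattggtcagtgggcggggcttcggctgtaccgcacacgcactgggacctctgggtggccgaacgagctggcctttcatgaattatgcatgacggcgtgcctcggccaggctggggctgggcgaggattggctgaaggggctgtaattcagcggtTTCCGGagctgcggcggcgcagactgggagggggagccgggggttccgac
This ETS motif is common, in 14.5% of the 35116 windows, and the IL6ST window and 1 of 2 SOCS3 windows held it as well. Any link between the motif and the STAT3 change was not tested. The CRE motif TGACGTCA, present in 1.65% of all windows, was in 0 of the 11.

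SOCS3, the feedback inhibitor that STAT3 induces, read 7.46, 7.58 and 7.58 in PD325901, 7.44 and 7.11 in BB94, and 7.31, 7.32, 7.44 and 7.44 in control. The PD325901 arrays lay just above the control arrays without overlap, by a margin smaller than the spread within BB94. The change in PD325901 against control was 0.16 (95% interval -0.050 to 0.37, adjusted p = 0.237), and against BB94 it was 0.27 (95% interval 0.015 to 0.52, adjusted p = 0.106). SOCS3 was called higher in PD325901 than in BB94 with array weights (adjusted p = 0.0369) and without BB94 replicate 1 (adjusted p = 0.0305). SOCS3 in BB94 differed from control by -0.11 (adjusted p = 0.85). Neither of its 2 probe sets was called in any comparison, and the second was below background on all arrays. STAT3 passed the test in PD325901 against control and SOCS3 did not, and the difference between their changes was not tested.

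**Figure D3:**
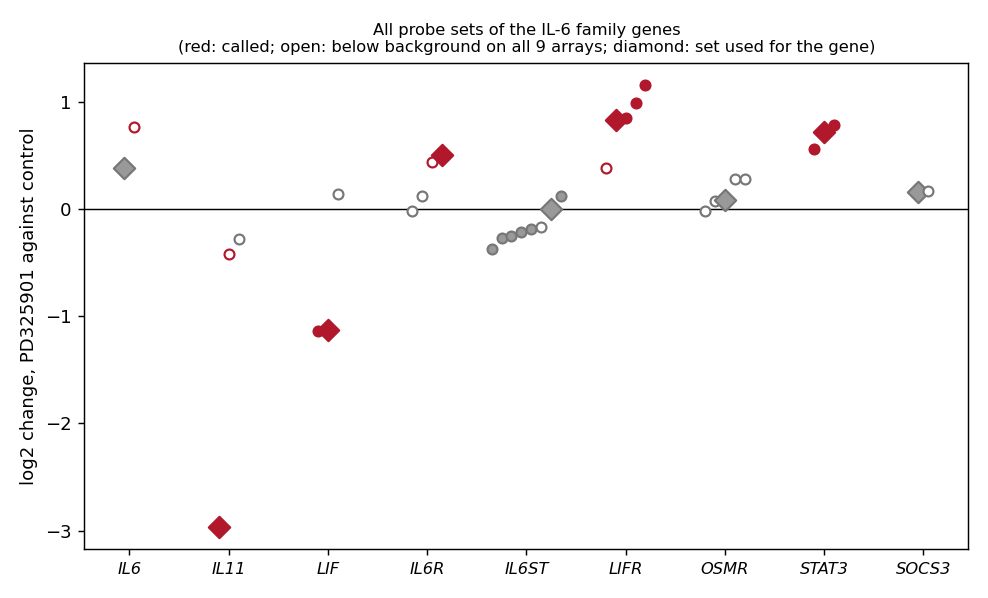
Log2 change in PD325901 against control (vertical axis) of all 35 probe sets of the 9 genes. Diamonds are the sets used for the gene, red symbols were called over all probe sets and open symbols were below background on all 9 arrays; the 5 sets of LIFR and the 3 of STAT3 all lie above 0 and are red.

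Over all 35 probe sets, 20 were above background on all 9 arrays, 1 on some arrays and 14 on none. With p-values adjusted over all probe sets, 11 were higher and 4 lower in PD325901 against control, where 29.4% of all probe sets were called. Against control, BB94 had 0 of the 35 called, where 1.5% of all probe sets were called, and in PD325901 against BB94 7 were higher and 3 lower, where 25.8% were. No probe set of any of the 9 genes was called against the direction of the gene's own call. The 1 set above background on some arrays was that of IL11.

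In order of the group means, PD325901 was highest for IL6, IL6R, LIFR, STAT3 and SOCS3, and lowest for IL11 and LIF. For LIFR, STAT3, IL6R and LIF the neighbours in this order, BB94 and control, did not differ beyond their spread. By the brightest probe set of each gene, only IL11 had both BB94 arrays apart from all control arrays. Its levels were 8.02 ± 0.07 (SD, n = 2) in BB94 and 8.44 ± 0.13 (SD, n = 4) in control. Other probe sets also separated BB94 from control without a call. The IL6ST set 11730758_a_at read 6.34 and 6.49 in BB94 and 6.76 to 7.05 in control. Both BB94 arrays were also below all control arrays for the IL6ST sets 11753879_x_at, 11753878_s_at and 11730757_a_at. Their log2 changes were -0.57, -0.61 and -0.68. The 4 OSMR sets below background and the IL6R set 11741958_a_at, also below background, were higher on both BB94 arrays than on any control array. The LIFR set 11722686_a_at read 8.61 and 8.49 in BB94 and at most 8.47 in control. How many of all genes separated in this way was not counted. By the brightest probe set of each of the 9 genes, the 95% intervals of the change in BB94 against control reached at most from -0.71, for IL11, to 0.52, for LIF. For other probe sets the limits can be wider, as for the IL6ST set 11730757_a_at (-0.68, SE 0.22). The test with 2 BB94 arrays therefore left room for changes of at least that size, and absence of a call does not show equal levels.

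Genes around the family were read from lists made of textbook members, and each count stands beside the share over all genes (35.1% called in PD325901 against control, 22.8% higher and 12.3% lower, and 1.58% called in BB94 against control). The lists were chosen with earlier results of these data known, so their shares of calls are not independent of the data. Of 7 other ligands 5 were measured, and in PD325901 against control 2 were higher and 0 lower (40% called, near the 35.1% of all genes; list median 0.085). With arrays centred on the median over genes or probe sets the count was 1. CTF1, which encodes cardiotrophin-1, a ligand of gp130 and LIFR, rose 2.90-fold, to 9.32 ± 0.0025 in PD325901 (SD, n = 3), against 7.78 ± 0.16 in control (SD, n = 4; log2 change 1.54, adjusted p = 4.23e-06). EBI3, a subunit of interleukins 27 and 35, was higher by 0.40 (adjusted p = 0.0234), and this call was lost in 7 of 20 alternative settings, among them without each PD325901 replicate in turn (adjusted p 0.0508 to 0.0832) and without control replicate 2 (0.0615) or 3 (0.0564). OSM, IL27 and IL31 were below background in all groups. With BB94 0 of the 5 were called against control, also at an unadjusted p under 0.05, and CTF1 was higher in PD325901 than in BB94 by 1.64 (adjusted p = 1.32e-05).

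Of 6 other receptors all were measured, with 1 higher and 1 lower in PD325901 against control (33.3% called, near the 35.1% of all genes) and 0 called in BB94 against control (1 at an unadjusted p under 0.05). IL11RA, the alpha receptor for IL-11, rose 2.47-fold, to 7.65 ± 0.04 in PD325901 (SD, n = 3), against 6.34 ± 0.13 in control (SD, n = 4; log2 change 1.31, adjusted p = 4.92e-06), and all 3 of its probe sets were called higher. IL11 and IL11RA, like LIF and LIFR, thus had the ligand lower and the receptor higher in PD325901. Other pairs did not run this way. CTF1 and its receptor chain LIFR were both higher, and IL6 (0.38, not called) and IL6R (0.51, called) both changed upward. IL31RA, which pairs with OSMR to receive interleukin 31, was lower by 0.50 on the log2 scale, at 9.74 ± 0.07 in PD325901 (SD, n = 3) against 10.24 ± 0.14 in control (SD, n = 4; adjusted p = 0.00179), with 6 of 6 probe sets called lower.

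Of 10 JAK kinases and other STATs 8 were measured, with 5 higher and 0 lower in PD325901 against control (62.5% called, beside 35.1% of all genes; list median 0.40) and 0 called in BB94 against control (1 at an unadjusted p under 0.05). Centring on the median over genes gave 4 higher and 1 lower. The filter on dim genes left 3 of 6 called, all higher, beside 5716 of 10655 over all genes. STAT5A, a transcription factor of prolactin and cytokine signalling, was higher by 0.86 (adjusted p = 2.5e-05), and STAT6, that of interleukin 4, by 0.57 (adjusted p = 0.00039). STAT4 was below background in control and rose at least 2.01-fold, to 7.22 ± 0.08 in PD325901 (SD, n = 3; adjusted p = 3.51e-06). JAK3, a kinase best known from lymphocytes, was also below background in control and rose at least 1.48-fold (adjusted p = 6.44e-07), with 1 of its 5 probe sets called.

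All 16 negative regulators were measured, with 3 higher and 3 lower in PD325901 against control (37.5% called, near the 35.1% of all genes; list median -0.056) and 0 called in BB94 against control (3 at an unadjusted p under 0.05). Centring on the median over genes made this 3 higher and 9 lower. SOCS2, a relative of SOCS3 known for restraining growth hormone signalling, rose 2.97-fold, to 11.33 ± 0.07 in PD325901 (SD, n = 3), against 9.76 ± 0.20 in control (SD, n = 4; log2 change 1.57, adjusted p = 1.61e-06), with both probe sets called. PIAS3, an inhibitor of STAT3, was higher by 0.67 (adjusted p = 0.000331), and PTPN2, a phosphatase of JAKs and STATs, by 0.61 (adjusted p = 0.000183). The PTPN2 call was lost with the mean of its probe sets (0.16, adjusted p = 0.134). SOCS7 was called lower (-0.52, adjusted p = 0.0193) while below background in every group, and without PD325901 replicate 1 or 3 its adjusted p was 0.075 or 0.0803.

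Of 27 textbook STAT3 target genes all were measured, with 14 higher and 7 lower in PD325901 against control (77.8% called, beside 35.1% of all genes; list median 0.29), and 2 higher and 1 lower in BB94 against control (11.1% called, beside 1.58% of all genes; list median 0.062). Centring on the median over genes gave 10 higher and 8 lower in PD325901, and 3 higher and 2 lower in BB94. For BB94 the split was 4 and 1 centred on probe sets, 4 and 2 with cyclic loess and 3 and 2 with array weights. Many of these genes are also known targets of ERK, AP-1 or NF-κB, so the list is not specific to STAT3. It was also chosen with earlier results of these data known, so its share of calls is no independent result. Of the 10655 genes with a mean above background, 5716 were called in PD325901 against control. By the brightest probe set of each gene, the 2 genes higher in BB94 were SAA1 and the near-identical SAA2. Over all probe sets, 1 of 5 sets of CEBPD and 1 of 5 of BCL6 were also called higher in BB94 against control. For CCND1, 1 of 4 sets was called lower. CEBPD, a transcription factor of the acute phase, was higher by 2.34, at 12.13 ± 0.03 in PD325901 (SD, n = 3) against 9.79 ± 0.08 in control (SD, n = 4; adjusted p = 5.54e-08), with 5 of 5 probe sets called in that comparison. CCND1, which encodes the cell-cycle protein cyclin D1, was lower by 3.29 on the log2 scale (adjusted p = 3.61e-08), with 4 of 4 sets called.

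The acute-phase gene SAA1 was higher in both inhibitors, at 12.76 ± 0.07 in PD325901 (SD, n = 3), 13.52 ± 0.20 in BB94 (SD, n = 2) and 11.01 ± 0.11 in control (SD, n = 4). Its log2 changes against control were 1.75 (adjusted p = 3.08e-07) in PD325901 and 2.51 (adjusted p = 2.4e-06) in BB94, and it was lower in PD325901 than in BB94 by 0.76 on the log2 scale (adjusted p = 0.000491). SAA2, a near-identical gene whose probes may share its signal, was below background in control and was at least 1.91-fold higher in PD325901 and at least 1.38-fold higher in BB94. Between the inhibitors SAA2 went the other way from SAA1, higher in PD325901 than in BB94 by 0.46 (adjusted p = 0.0167), and this call was lost in 6 of 19 settings, among them without BB94 replicate 1 (0.0861), BB94 replicate 2 (0.0858) or PD325901 replicate 3 (0.0572). The gene lower in BB94 was ICAM1, an adhesion molecule, which was named after its values were seen (log2 change -0.59, adjusted p = 0.0147). Over all probe sets, 1 of its 3 sets was called lower in BB94. The ICAM1 call was lost without BB94 replicate 2 (-0.44, adjusted p = 0.245) and with only the BB94 and control arrays fitted (adjusted p = 0.0776). The calls in BB94 among the STAT3 target genes thus stood beside 0 calls among the 9 family genes.

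The 6 genes on the list of proteases that shed IL6R, with their partners and the inhibitor TIMP3, were all measured. In PD325901 against control 2 were higher and 2 lower (66.7% called, beside 35.1% of all genes and 5716 of the 10655 genes above background). In BB94 against control 1 was lower. In PD325901 the mean of probe sets gave 0 higher and 1 lower, centring on the median over genes 0 and 2, and leaving out control replicates 3 and 4 together 1 and 1. ADAM10 was higher by 0.39 (adjusted p = 0.00509) and ADAM17 by 0.30 (adjusted p = 0.0179) in PD325901. The ADAM10 call was lost with the mean of its probe sets (adjusted p = 0.081) and with centring on the median over genes (0.302). The ADAM17 call was lost in 7 of 20 settings, among them without PD325901 replicate 1 (0.0619) or replicate 3 (0.0673). RHBDF1, which encodes iRhom1, a partner that carries ADAM17 to the surface, was lower by 0.59 on the log2 scale (adjusted p = 0.00742), and with the mean of its probe sets it was not called (-0.12, adjusted p = 0.368), nor without control replicates 3 and 4 together (-0.48, adjusted p = 0.0596). TIMP3, the inhibitor of ADAM17 and ADAM10, was lower by 1.74 on the log2 scale in PD325901 (adjusted p = 1.85e-07) and by 0.76 in BB94 (adjusted p = 0.00379). Of the 3 TIMP3 probe sets, all were called lower in PD325901 and 1 in BB94. The TIMP3 call in BB94 was lost without BB94 replicate 2 (-0.67, adjusted p = 0.0874) and with the mean of its probe sets (-0.55, adjusted p = 0.0894).

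**Figure D4:**
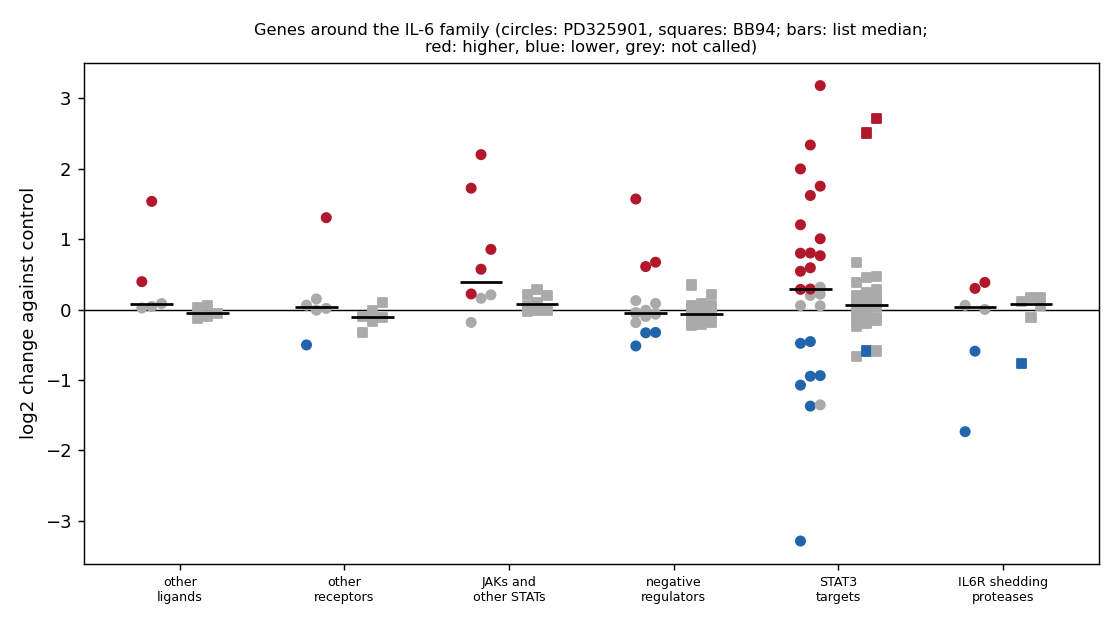
Log2 change against control (vertical axis) of the measured genes of 6 lists around the IL-6 family, for PD325901 (circles) and BB94 (squares). Bars are list medians, red was called higher, blue lower and grey not called; in BB94 only SAA1, SAA2, ICAM1 and TIMP3 are coloured.

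The genes whose pattern over the 9 arrays was most like that of each member were found among 10996 genes above background. The measure was Pearson's r over the 9 arrays, given as a description, since all points share the 3 groups and the 9 arrays. IL11 ran with GJB2 (r = 0.998) and ACP7 (r = 0.997), and 597 genes had an r over 0.95 with it. LIF ran with STRAP and NEMP1 (r = 0.993 for both), with 326 genes over 0.95. LIFR ran with MMUT (r = 0.996) and SHTN1 (r = 0.995), with 1050 genes over 0.95, and STAT3 with KAT6B (r = 0.993) and ACADSB (r = 0.988), with 196. The members with smaller changes had fewer close companions. IL6 was closest to TTBK2 (r = 0.972) and UBTD2 (r = 0.967), with 3 genes over 0.95, and IL6R to RAB9A (r = 0.980) and BORCS5 (r = 0.974), with 9. IL6ST was closest to SSB (r = 0.976) and STK4 (r = 0.973), with 29 genes over 0.95. OSMR was closest to DUSP3 (r = 0.915) and CORO7 (r = 0.906), and SOCS3 to CPNE2 (r = 0.944) and GTPBP2 (r = 0.943), with 0 genes over 0.95 for either.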

How the data were processed

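RNA of 9 cultures was hybridised to Affymetrix PrimeView arrays. The authors deposited log2 values that they had made by RMA with the affy package, per the labels of the series and the submitters' processing notes. RMA corrects background, quantile-normalizes arrays and summarises the probes of a set. The values were taken as they stood. The table held 49395 probe sets, and 102 control sets entered no test. In the platform annotation 44988 probe sets had 1 gene symbol, 1832 several and 2473 none, and 44961 of those with 1 symbol were found in RefSeq (GRCh38.p14) by gene identifier. The files name no genome build, so the printed promoters come from RefSeq alone.

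The tests used limma 3.58.1 under R 4.3.3 (lmFit, a coefficient per group, eBayes, two-sided, 6 residual degrees of freedom over all 9 arrays), with Benjamini-Hochberg adjustment over genes, and the code was tested on simulated data. Intervals are 95% and unadjusted. Where a gene was below background on all arrays of 1 group, the fold is a bound: each of those arrays counted at its background level, or at the gene's value if that was higher, and their mean was set against the brighter group's. No fold is given where both groups were below. Arrays carry no read depth, so their number limits the precision. The labels call the samples biological replicates.

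The family genes were all named, with up to 4 genes from each list called against control, by absolute change, and the 2 genes most like each member. The members and lists were chosen with earlier results of these data known. Same-numbered replicates did not deviate together (correlations of deviations from group means -0.19 to 0.12), so the numbers were not used as pairs. Alternatives covered probe set choice, a filter on dim genes, scaling, eBayes settings, array weights, the arrays fitted and arrays left out.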

Additional observations from a re-analysis of the deposited data

How the results depend on the processing

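Each change was recomputed under 20 alternatives. IL11, LIF and LIFR kept their calls and directions in all 20 for PD325901 against control and against BB94, as did STAT3 against control, and 0 of the 9 genes was called in BB94 in any. Members called ranged from 4 to 6 in PD325901 against control and from 4 to 7 against BB94. Of 360 recomputed list counts, 319 stayed within 1.5 times.

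Genes called with all probe sets tested numbered 14480, 737 and 12727 in PD325901 against control, BB94 against control and PD325901 against BB94, from more features. For BB94 against control, 469 genes were called with array weights and 140 with only the compared arrays fitted, and 62 (without BB94 replicate 2) to 367 (without control replicate 1) with 1 array left out. Replicate numbers did not pair the samples, and with the replicate block 161 genes were called in BB94 against control, beside 286 without it, while 5, 0 and 6 family genes were called in the 3 comparisons, as without it. Under the block the calls of ICAM1 in BB94 against control (-0.60, adjusted p = 0.0826) and ADAM17 in PD325901 against control (0.28, adjusted p = 0.0564) were lost. The split of calls also moved with scaling. Centring on genes gave 125 higher and 151 lower in BB94 against control and 1990 and 5025 in PD325901 against BB94, beside 89 and 197 and 3804 and 1848. Centring on probe sets gave 3285 and 2959 in PD325901 against control, 218 and 151 in BB94 against control and 2474 and 3512 in PD325901 against BB94, and cyclic loess gave 172 and 203 in BB94 against control.

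Uncalled changes near 0 turned sign, and the cause was not tested. IL6ST in PD325901 against control was -0.16 with the mean of probe sets, -0.25 centred on genes, -0.10 centred on probe sets, -0.16 with array weights, -0.11 with the replicate block, -0.27 without control replicates 3 and 4 and -0.11 to 0.11 with 1 array left out. IL6ST in BB94 against control was -0.33 with the mean of probe sets, -0.020 with array weights, -0.10 with the block, -0.17 without control replicates 3 and 4 and -0.0093 to 0.21 with 1 left out, and in PD325901 against BB94 it was 0.16 with the mean of probe sets. OSMR in PD325901 against control was -0.17 centred on genes, -0.017 centred on probe sets and -0.00074 to 0.16 with 1 left out. SOCS3 centred on genes was -0.092 in PD325901 against control and -0.059 against BB94, and in BB94 against control it was 0.0061 centred on probe sets and -0.27 to 0.059 with 1 left out. LIF in BB94 against control was -0.063 with array weights, -0.12 with the block, -0.15 without control replicates 3 and 4 and -0.066 to 0.25 with 1 left out, IL6R was -0.00081 to 0.070 with 1 left out, and LIFR was 0.11 with the mean of probe sets. STAT3 there was 0.0080 with the mean of probe sets, 0.013 centred on genes, 0.052 centred on probe sets and -0.17 to 0.027 with 1 left out.

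Levels below background, and the number of BB94 arrays, limit detection. Where leaving out an array left BB94 with 1, that array was assumed to vary like the other groups.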
